A study of Mus musculus with 6 samples.

Results

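The 9 genes described here encode enzymes that remove superoxide and peroxides, the factor that loads copper into one of them, and a pair of related proteins that protect cells against oxidants. They are the superoxide dismutases Sod1, Sod2 and Sod3, the copper chaperone Ccs, catalase (Cat), Oxr1 and its relative Ncoa7, and the glutathione peroxidases Gpx7 and Gpx8. Each was taken by its symbol in the array annotation, and each of the 9 was read by 1 probe set, a group of short probes along the transcript. They are 9 of 19938 genes that could be named in this way. RNA came from mouse embryonic fibroblasts (MEFs), connective tissue cells grown from embryos, of wild-type mice ("H2AX. WT" in the labels, called wild type below) or of H2AX mutant mice ("H2A.X Knockout", called knockout below). H2AX is the histone variant that is phosphorylated around DNA breaks. Each genotype was measured on 3 Affymetrix Gene ST arrays, for 6 arrays in all, without any treatment of the cells. The labels name no separate embryos, cultures, sex or passage, so that the spread behind each p-value is that of these arrays and may be technical, and what a genotype shares with the source of its cells cannot be told apart from it.

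Superoxide is a by-product of respiration and of oxidases. Superoxide dismutases turn it into hydrogen peroxide, with SOD1 mainly in the cytosol, SOD2 in the mitochondrial matrix and SOD3 outside the cell. Catalase, which sits in peroxisomes, breaks hydrogen peroxide down to water and oxygen. GPX7 and GPX8 are peroxidases of the endoplasmic reticulum (ER) that carry cysteine instead of selenocysteine at the active site and pass oxidizing power to protein disulfide isomerases. OXR1 and NCOA7 share a carboxy-terminal TLDc domain, a fold found in proteins linked to oxidation resistance and to the vacuolar proton pump.

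The values are log2 expression values, in which a step of 1 is a doubling. Each gene is read by its own probe set, so that the levels of different genes are not compared below, but only their changes. Genotypes were compared by limma, a linear model fitted to all genes with moderated variance, and the words rose, fell, higher and lower are kept for genes with an adjusted p under 0.05 (Benjamini-Hochberg over 19938 genes). Of the 9 genes, 4 fell in knockout cells (Oxr1, Gpx8, Gpx7 and Cat), 1 rose (Ccs) and 4 did not pass the test (Sod1, Sod2, Sod3 and Ncoa7). Over all genes, 15.0% were called lower and 18.4% higher in the same comparison. When only the brighter 50% of genes were tested, 5494 of 9969 were called in either direction, against 6666 of 19938 over all genes. All 9 genes belong to that brighter part, where 5 of them were lower and 1 was higher. The median log2 fold change, knockout minus wild type, was -0.22 over the 9 genes and 0.02 over all genes. Of all genes, 3.18% were lower with a fold-change over 2, and Oxr1 and Gpx8 were among them. The targeted gene H2ax was lower on each knockout array, at 9.05 ± 0.12 (log2 value, SD, n = 3) for wild type and 7.71 ± 0.05 (SD, n = 3) for knockout. The Y-linked genes Kdm5d, Uty and Eif2s3y were lower as well, with differences of -2.88, -3.73 and -4.04 log2 units, while Xist had a log2 value of 4.53 in wild-type and 4.56 in knockout cells. The part of this difference between the cells in the results below was not tested.

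Sequences upstream of the start site are shown for Cat and Gpx7, which fell, and for Sod1 and Sod2, which did not pass the test, to show the promoter letters of genes with and without a change. They are taken from RefSeq (build GRCm38.p6), whose table held a start site for 6 of the 9 genes, and none for Sod3, Ccs and Oxr1. The windows of Ncoa7 and Gpx8 lie inside annotated genes and are not printed. Each runs 5′ to 3′ over the 250 bases before the start site, on the strand of the gene, and capitals mark matches to the motifs named after them.
Cat, chr2:103485154-103485403, minus strand: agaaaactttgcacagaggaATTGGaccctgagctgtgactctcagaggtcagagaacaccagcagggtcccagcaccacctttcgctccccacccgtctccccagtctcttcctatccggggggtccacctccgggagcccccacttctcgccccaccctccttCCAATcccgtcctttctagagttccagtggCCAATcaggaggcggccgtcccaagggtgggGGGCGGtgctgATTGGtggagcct
Gpx7, chr4:108406714-108406963, minus strand: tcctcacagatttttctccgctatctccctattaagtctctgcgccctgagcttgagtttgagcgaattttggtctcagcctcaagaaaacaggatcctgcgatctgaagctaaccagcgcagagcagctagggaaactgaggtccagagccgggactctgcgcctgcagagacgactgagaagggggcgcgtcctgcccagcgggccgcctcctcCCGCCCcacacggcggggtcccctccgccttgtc
Sod1, chr16:90220512-90220761, plus strand: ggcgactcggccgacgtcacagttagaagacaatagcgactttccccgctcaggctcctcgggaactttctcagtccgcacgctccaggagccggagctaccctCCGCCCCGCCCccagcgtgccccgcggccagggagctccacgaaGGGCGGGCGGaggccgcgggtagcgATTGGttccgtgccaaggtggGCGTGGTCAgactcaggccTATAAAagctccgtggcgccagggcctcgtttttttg
Sod2, chr17:13007589-13007838, plus strand: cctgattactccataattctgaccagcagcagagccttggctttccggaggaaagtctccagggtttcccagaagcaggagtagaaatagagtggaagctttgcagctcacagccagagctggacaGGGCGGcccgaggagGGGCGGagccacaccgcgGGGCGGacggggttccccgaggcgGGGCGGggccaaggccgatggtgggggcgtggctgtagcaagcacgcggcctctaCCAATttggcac
Motifs were searched on both strands of these 250 bases, and in 32851 RefSeq windows of the same length for comparison. The GC box GGGCGG was found 1 time each in Cat and Gpx7 and 4 times each in Sod1 and Sod2, and at least once in 32.7% of all windows. In Sod1 its matches lie in 2 overlapping pairs. The CCAAT box was found 4 times in Cat, 1 time each in Sod1 and Sod2, not in Gpx7, and in 33.9% of all windows. TATAAA was found in Sod1, 37 bases before the start site, and in 12.4% of all windows. The core of the antioxidant response element, the binding site of NRF2 (letters TGACNNNGC), was found in Sod1 and in 10.2% of all windows. The FOXO site TGTTTAC was in none of the 4 windows and in 3.17% of all windows. No match to one motif overlapped a match to another. A match describes letters and not a bound site.

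Oxr1 showed the largest change of the 9 genes. Its log2 value was 8.38, 8.51 and 8.45 on wild-type arrays 1 to 3, and 7.26, 7.11 and 7.39 on knockout arrays 1 to 3. All knockout arrays lay below all wild-type arrays, with a gap of 0.99 between the nearest pair, where 19.5% of all genes lay without overlap in this direction. The difference, knockout minus wild type, came to -1.20 log2 units (SE 0.08, adjusted p = 2.3e-06 from limma), a size of 2.29-fold with a 95% interval from 2.02 to 2.60. Of all genes, 4.01% had a change at least as large in either direction. The study lists Oxr1 among genes it picked on these arrays, so that its direction is no independent evidence. Ncoa7, which shares the TLDc domain with Oxr1, had values of 8.06, 8.33 and 8.09 in wild-type and of 7.97, 7.94 and 7.92 in knockout cells. Here too each knockout array lay below each wild-type array, but by a gap of only 0.09. Its log2 fold change was -0.22 (95% interval from -0.40 to -0.04, adjusted p = 0.064 from limma), and it passed the test without wild-type replicate 1 (adjusted p = 0.042), after quantile normalization (adjusted p = 0.034) and when the dimmer 50% of genes were left out (adjusted p = 0.0497). It did not pass under the other alternatives, and was -0.13 without wild-type replicate 2 (adjusted p = 0.22) and -0.18 after median centring (adjusted p = 0.11). Of the other members of the TLDc family, Tbc1d24, a protein of vesicle traffic, rose by 0.26 (adjusted p = 0.022), a call that was lost without wild-type replicate 1 or 2, without knockout replicate 3 and in the unmoderated test of the methods. Meak7 differed by -0.11 log2 units (adjusted p = 0.35) and Tldc2 by 0.01 (adjusted p = 0.93), which turned to -0.04 without wild-type replicate 2, to -0.02 without knockout replicate 2 and to -0.0005 without knockout replicate 3. Among these 5 genes, Oxr1 alone changed by more than 2-fold.

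**Figure D1:**
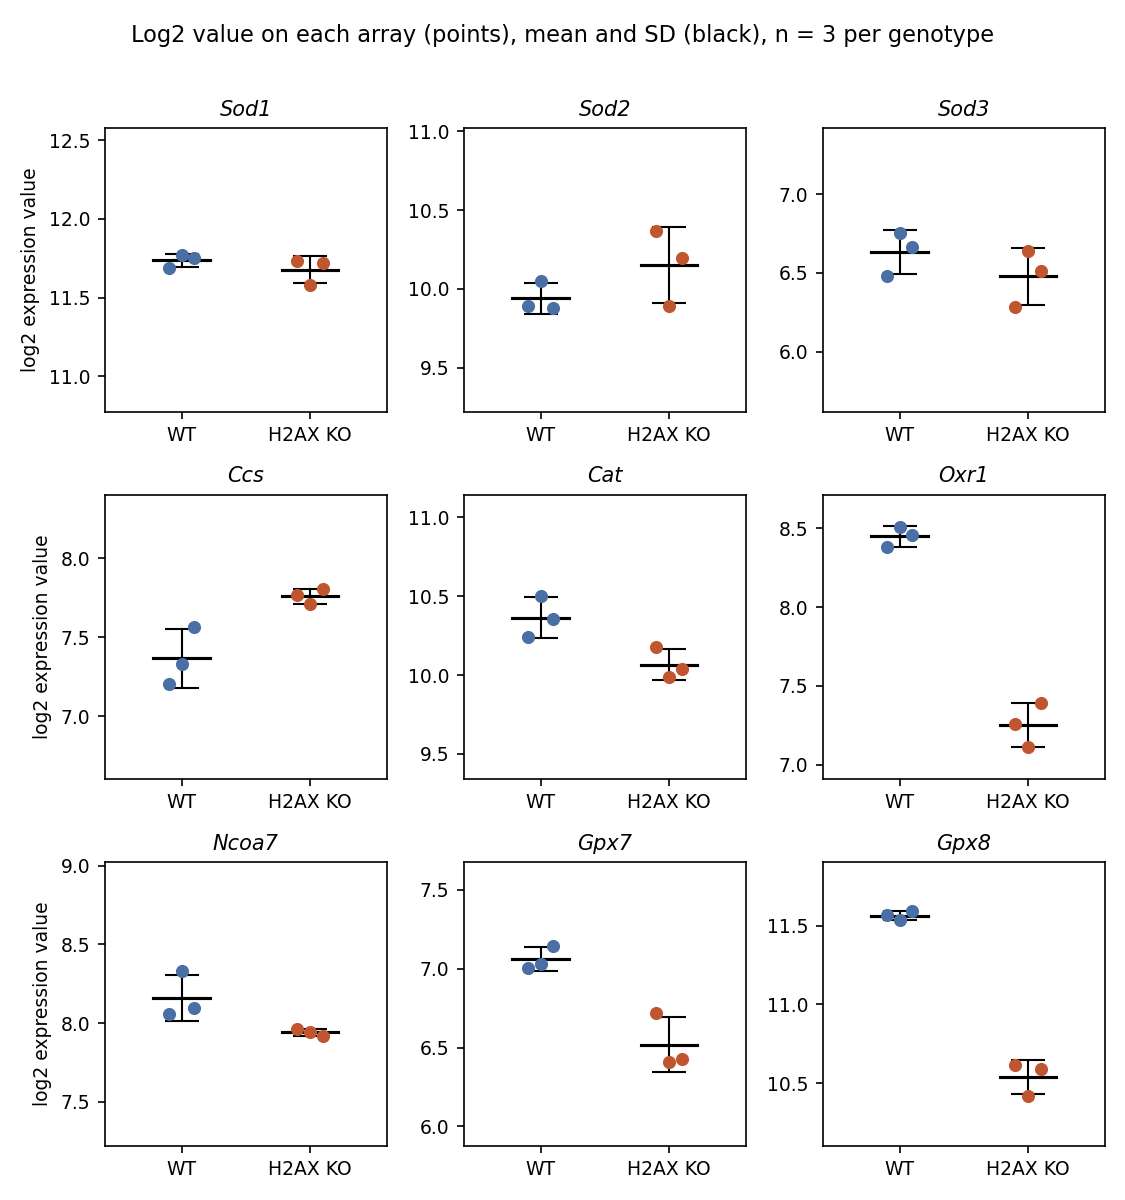
Log2 expression value on the y axis for each of the 9 genes on each array, with wild-type (WT, blue) and H2AX knockout (H2AX KO, orange) on the x axis; points are arrays, side by side for clarity, and black lines are the mean and SD of 3 arrays. Every panel spans the same range of log2 units, and the genotypes stand farthest apart for Oxr1 (8.45 against 7.25) and Gpx8 (11.56 against 10.54), whereas the points of Sod1, Sod2 and Sod3 overlap.

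The ER peroxidases Gpx8 and Gpx7 both fell. Gpx8 had log2 values of 11.56, 11.53 and 11.59 in wild-type and of 10.61, 10.42 and 10.59 in knockout cells. The 3 wild-type arrays were nearly level (SD 0.03), and the highest knockout array lay 0.92 below the lowest of them. The difference, knockout minus wild type, came to -1.02 log2 units (SE 0.07, adjusted p = 2.6e-06 from limma), a size of 2.03-fold with a 95% interval from 1.82 to 2.27, and 5.07% of all genes changed at least as much. Gpx7 had log2 values of 7.01, 7.03 and 7.15 in wild-type and of 6.72, 6.41 and 6.43 in knockout cells. The genotypes did not overlap, with knockout replicate 1 closest to wild type at a distance of 0.28. The difference, knockout minus wild type, came to -0.54 log2 units (SE 0.09, adjusted p = 0.0012 from limma), a size of 1.46-fold with a 95% interval from 1.26 to 1.68. At an adjusted p under 0.05, both calls held under every alternative that was run. The 6 other glutathione peroxidases of the mouse, most of which use selenocysteine, did not pass the test in limma, and none passed in the unmoderated test or at an unadjusted p under 0.05. Gpx1, the cytosolic enzyme, differed by -0.15 log2 units (adjusted p = 0.17) and passed without wild-type replicate 1 (-0.21, adjusted p = 0.039), whereas without wild-type replicate 3 it was at -0.09 (adjusted p = 0.42). Gpx4, which reduces lipid peroxides, differed by 0.13 log2 units (adjusted p = 0.35). Gpx2, Gpx3, Gpx5 and Gpx6 lay among the 25% of probe sets with the lowest mean, with log2 fold changes between -0.03 and 0.10. In RNA from whole cultures, fewer cells of a type and less RNA per cell cannot be told apart.

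Genes of oxidative folding in the ER, the compartment of GPX7 and GPX8, were largely lower in knockout cells. Of 14 listed genes, 9 (64.3%) fell, 2 rose and 3 were not called, against 15.0% lower over all genes, and their median log2 fold change was -0.35. The share over all genes includes dim genes, whereas 13 of these 14 belong to the brighter 50%. In that part 5494 of 9969 genes were called in either direction, and 9 of the 13 were lower and 2 higher. The largest fall was in Qsox2, a sulfhydryl oxidase that forms disulfide bonds, at 8.25 ± 0.11 (log2 value, SD, n = 3) for wild type and 6.79 ± 0.29 (SD, n = 3) for knockout, a difference of -1.47 log2 units (SE 0.13, adjusted p = 1.7e-05 from limma). Its relative Qsox1 fell by 0.86 on the log2 scale. The protein disulfide isomerases Pdia4, Pdia3, Pdia6 and P4hb fell by 0.82, 0.66, 0.38 and 0.26, and the ER peroxiredoxin Prdx4 fell by 0.46. These genes, and Txndc5 and Erp44, which complete the 9, were named after their values were seen. Pdia5, a further member of the isomerase family, rose by 0.42 (adjusted p = 0.0076 from limma), and so did Vkorc1, which recycles vitamin K, by 0.22. The ER oxidases Ero1a and Ero1b, which make hydrogen peroxide as they reoxidize the isomerases, had log2 fold changes of 0.16 and 0.18 and did not pass. The count of lower genes lay between 7 and 9 when 1 array was left out. For the higher genes, the count was 1 without any one of wild-type replicates 1 and 2 and knockout replicate 3, and was 4 without knockout replicate 2.

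Catalase fell by a small amount. Its log2 value was 10.24, 10.50 and 10.35 in wild-type and 10.18, 9.99 and 10.04 in knockout cells. The genotypes did not overlap, but wild-type replicate 1 and knockout replicate 1 were only 0.06 apart. The difference, knockout minus wild type, came to -0.30 log2 units (SE 0.08, adjusted p = 0.020 from limma), a size of 1.23-fold with a 95% interval from 1.08 to 1.40. The call was lost without wild-type replicate 2 (log2 fold change -0.23, adjusted p = 0.088), without wild-type replicate 3 (-0.30, adjusted p = 0.053), without knockout replicate 3 (-0.28, adjusted p = 0.075), in the fit blocked on array number (adjusted p = 0.056) and in the unmoderated test of the methods (adjusted p = 0.10). Among 13 measured genes of peroxisome assembly, 4 rose (30.8%), 1 fell (7.69%) and the other 8 were not called. These shares stand against 18.4% higher and 15.0% lower over all genes, dim ones included. The 4 higher genes were Pex6, a motor subunit that recycles the import receptor, which rose by 0.81 (adjusted p = 1.3e-05 from limma), and, named after their values were seen, Pex11a, Pex13 and Pex2, which rose by 0.46, 0.45 and 0.40. Pex7, the receptor of the less common import signal, fell by 0.64 (adjusted p = 0.017), with a spread of 0.41 (SD, n = 3) among knockout arrays and with the call lost without wild-type replicate 2 (adjusted p = 0.077) and in the unmoderated test (adjusted p = 0.16). Without knockout replicate 2 its change was -0.41 (adjusted p = 0.0064). Without wild-type replicate 1, 2 genes of the list were lower. Pex5, the receptor that carries catalase into the peroxisome, differed by -0.06 log2 units (adjusted p = 0.61). Of 8 measured peroxisomal oxidases that release hydrogen peroxide, Hao1 fell by 0.80 (adjusted p = 4.9e-05), at log2 values of 4.85 in wild-type and 4.04 in knockout cells, which are low on these arrays, and 7 did not pass. Of the 8, 5 lay among the 25% of probe sets with the lowest mean, and only 1 was tested without the dimmer 50% of genes. A missing call therefore says little for most of this list. The study lists Hao1, like Oxr1, among genes it picked on these arrays.

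The 3 superoxide dismutases did not pass the test. Sod1 had log2 values of 11.69, 11.77 and 11.75 in wild-type and of 11.73, 11.58 and 11.72 in knockout cells. Its groups overlapped, with a log2 fold change of -0.06 and a 95% interval from -0.21 to 0.09 (adjusted p = 0.58 from limma). Sod2 had values of 9.89, 10.05 and 9.88 in wild-type and of 10.36, 9.89 and 10.20 in knockout cells. Knockout replicates 1 and 3 lay above all wild-type arrays and knockout replicate 2 lay among them, which gave Sod2 the widest spread of the 9 genes in knockout cells (SD 0.24, n = 3, where the median over all genes was 0.08). Its log2 fold change was 0.21, with a 95% interval from -0.04 to 0.47 (adjusted p = 0.20 from limma), and without knockout replicate 2 it was 0.34 and passed (adjusted p = 0.0097), whereas without knockout replicate 1 it was 0.11 (adjusted p = 0.51). Sod3 had values of 6.48, 6.75 and 6.66 in wild-type and of 6.28, 6.64 and 6.51 in knockout cells. The groups overlapped, with a log2 fold change of -0.15 and a 95% interval from -0.38 to 0.08 (adjusted p = 0.31 from limma), and the change was -0.23 without knockout replicate 2, -0.09 when wild-type replicate 2 was dropped and -0.06 when knockout replicate 1 was. These tests do not show that the 3 genes were level between genotypes.

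Ccs, which hands copper to SOD1 and forms its disulfide bond, was the single gene of the 9 to rise. Its log2 value was 7.20, 7.33 and 7.57 in wild-type and 7.77, 7.71 and 7.80 in knockout cells. Each knockout array lay above each wild-type array with a gap of 0.145 between the nearest pair, where 25.3% of all genes lay without overlap in this direction. The difference, knockout minus wild type, came to 0.40 log2 units (SE 0.09, adjusted p = 0.0078 from limma), a size of 1.32-fold with a 95% interval from 1.14 to 1.52. The spread among wild-type arrays (SD 0.19) was larger than among knockout arrays (SD 0.05), and the call was lost in the unmoderated test of the methods (adjusted p = 0.080). Of 13 measured genes of copper handling, 2 rose (15.4%), 3 fell (23.1%) and 8 were not called. Over all genes, dim ones included, 18.4% were higher and 15.0% lower. Slc31a2, a copper transporter of endosomes and lysosomes, fell by 1.09 (SE 0.09, adjusted p = 7.7e-06), whereas Slc31a1, the high-affinity importer at the cell surface, differed by -0.03 log2 units (adjusted p = 0.87). The metallothionein Mt2, which binds copper and zinc, rose by 0.90 (adjusted p = 8.3e-05). Named after their values were seen, its neighbour Mt1 fell by 0.20 (adjusted p = 0.042), the copper pump Atp7a fell by 0.35 (adjusted p = 0.021) and the chaperone Atox1 rose by 0.22 (adjusted p = 0.025). The higher count was 1 once wild-type replicate 1, knockout replicate 1 or knockout replicate 3 was left out, and 1 gene was left as lower without wild-type replicate 2. Of 10 genes of manganese and zinc handling, the metals of SOD2 and of SOD1, the zinc exporter of the Golgi Slc30a6 rose by 0.48 (adjusted p = 0.010), the manganese and zinc importer Slc39a14 fell by 0.24 (adjusted p = 0.039) and 8 did not pass. The call of Slc39a14 was lost when any one of wild-type replicates 2 and 3 and knockout replicates 1 and 3 was dropped (adjusted p from 0.068 to 0.14), with a trended and robust variance prior (adjusted p = 0.0502), after median centring (adjusted p = 0.087) and in the unmoderated test (adjusted p = 0.13), where that of Slc30a6 was lost as well (adjusted p = 0.11).

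**Figure D2:**
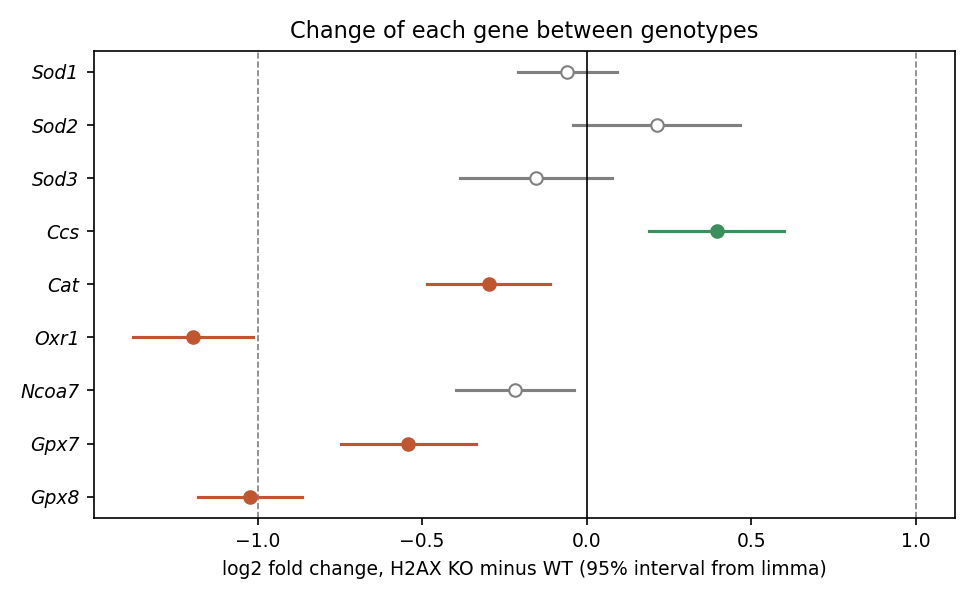
The x axis gives the log2 fold change between genotypes (knockout minus wild type) for the 9 genes on the y axis, with points for the estimates and lines for the 95% intervals; colour marks genes called by limma (orange lower, green higher), open points are the rest, and dashed lines show a fold-change of 2. Estimates run from -1.20 for Oxr1 to 0.40 for Ccs, and the intervals of Sod1, Sod2 and Sod3 include 0.

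Changes were also compared within 5 pairs of related genes. For each pair, the log2 value of one gene was subtracted from that of the other on each array, and the change of that difference between genotypes was tested with an exact two-sided permutation test, which with 3 arrays against 3 cannot give a p below 0.1. Each of the 5 pairs reached that smallest value (exact permutation p = 0.1, and 0.1 after adjustment over the pairs), since in each the differences of the 2 genotypes did not overlap. How often other gene pairs do so was not counted. Of single genes, 19.5% lay lower and 25.3% higher in knockout cells without overlap, so that this count does not set the 5 pairs apart. Oxr1 minus Ncoa7 changed by -0.98 between genotypes, with an SD of 0.09 over wild-type and of 0.15 over knockout arrays. Gpx7 minus Gpx8 changed by 0.48. Sod1 minus Ccs changed by -0.45, Sod2 minus Cat by 0.51 and Sod1 minus Sod2 by -0.27. The last was the smallest, with knockout replicate 2 closest to the wild-type arrays. None of these changes turned its sign after quantile normalization. Leaving out 1 array could not turn a sign, since the genotypes did not overlap. Median centring shifts both genes of an array alike, so that it cannot move these differences.

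**Figure D3:**
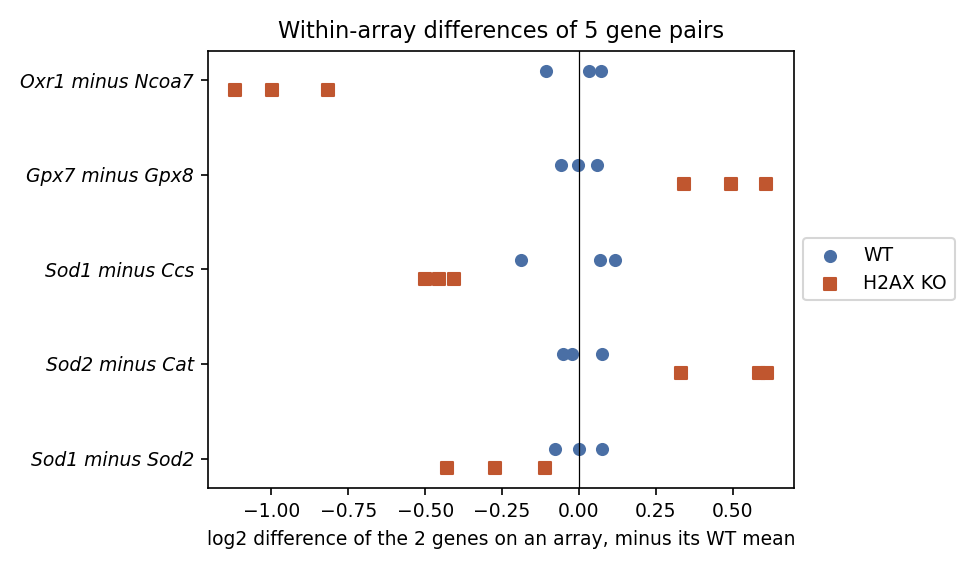
Difference of the log2 values of 2 genes on the same array, minus its wild-type mean, on the x axis for 5 pairs on the y axis, with 3 wild-type arrays as blue circles and 3 knockout arrays as orange squares. In each pair the squares lie to 1 side of the circles, farthest for Oxr1 minus Ncoa7 with a change of -0.98 and nearest for Sod1 minus Sod2 with -0.27.

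Genes that make superoxide and genes known to regulate these enzymes were read as further lists. Of 16 measured genes of superoxide producers, the NADPH oxidase Nox4 rose by 0.93 (adjusted p = 5.5e-05 from limma) and Xdh, xanthine dehydrogenase, fell by 2.90 (adjusted p = 8.2e-09). Nox4 stood at a low log2 value of 5.40 in wild-type cells and at 6.32 in knockout cells. The study lists Nox4 too among genes it picked on these arrays, so that its direction is no independent evidence. Duoxa1, a maturation factor of a dual oxidase that was named after its value was seen, rose by 0.35. The other 13 genes of the list did not pass, so that 12.5% were higher and 6.25% lower, against 18.4% and 15.0% over all genes. Most genes of this list are dim, and only 3 of the 16 were tested when the dimmer 50% of genes were left out. These shares therefore cannot show that calls were rarer in this list than elsewhere. Another list held 13 genes of FOXO factors, which activate Sod2 and Cat in several cell types, sirtuins and their coactivators. Of these, 5 rose (38.5%), 2 fell (15.4%) and 6 were not called, against 18.4% higher and 15.0% lower over all genes. In the brighter 50%, 5494 of 9969 genes were called in either direction, and of the 9 tested genes of this list 5 were higher and 1 lower. Foxo3 stood at 7.86 ± 0.08 (log2 value, SD, n = 3) for wild type and 8.66 ± 0.12 (SD, n = 3) for knockout, a difference of 0.80 log2 units (SE 0.08, adjusted p = 3.4e-05). Named after their values were seen, Sirt1, Sirt4, Foxo1 and Foxo4 rose by 0.72, 0.35, 0.28 and 0.24. Ppargc1a, a coactivator of mitochondrial and antioxidant genes, fell by 0.58 (adjusted p = 0.00045), at low log2 values of 5.43 in wild-type and 4.84 in knockout cells, and Sirt7 fell by 0.40. The higher count was 3 without knockout replicate 3, and the lower count was 1 when any array other than wild-type replicate 1 was left out.

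**Figure D4:**
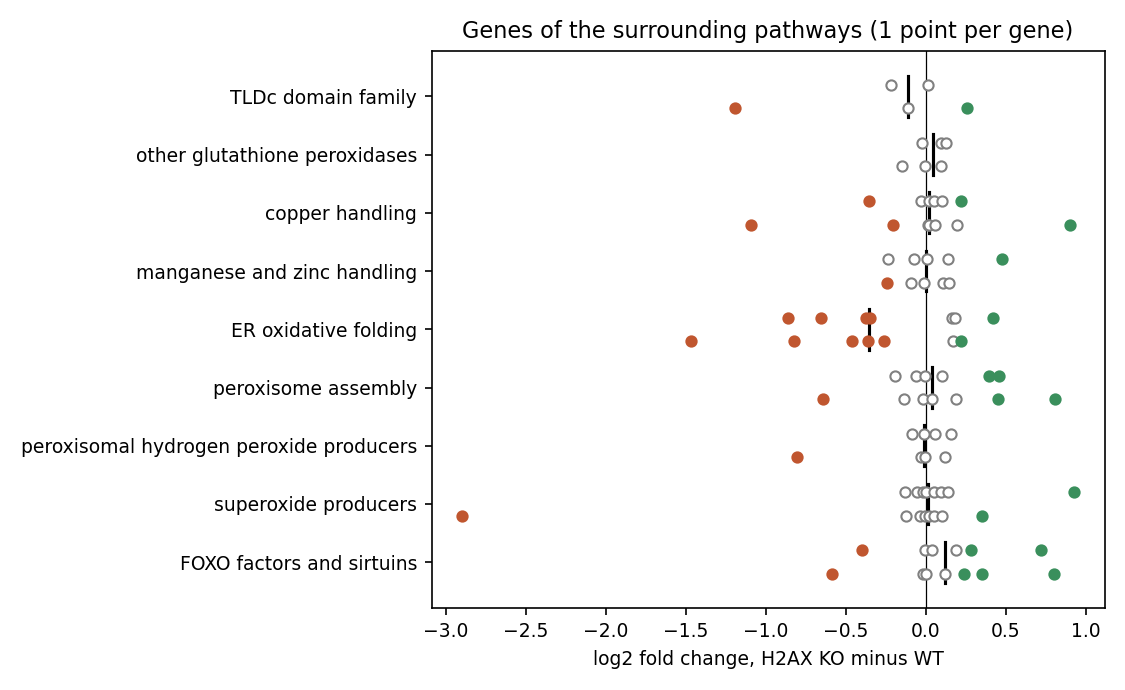
The x axis gives the log2 fold change between genotypes (knockout minus wild type) and the y axis 9 gene lists, with 1 point per gene and a black bar at each list's median; colour marks genes called by limma (orange lower, green higher) and open points are the rest. The ER oxidative folding list lies mostly below 0 with a median of -0.35, while the medians of the other lists lie between -0.11 and 0.12.

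Across the 6 arrays, the genes whose values followed those of Oxr1 most closely were Ppm1l, a membrane-bound protein phosphatase (Pearson r = 0.9996), Thbs1, the matrix protein thrombospondin (r = 0.9992), and Inpp4b, an inositol phosphatase (r = 0.9990). They fell by 0.73, 0.71 and 1.05 on the log2 scale. With 2 groups of arrays such a correlation mostly follows the difference between genotypes, and 12.0% of all genes had an r over 0.9 with Oxr1. Within genotypes, knockout replicate 2 was the lowest knockout array for 7 of the 9 genes (Sod1, Sod2, Ccs, Cat, Oxr1, Gpx7 and Gpx8), as it was for 41.1% of all genes. Wild-type replicate 2 was the highest wild-type array for 6 of the 9 genes and for 35.7% of all genes.

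Markers of cell types were read on the same arrays, where 18.4% of all genes were higher and 15.0% lower. Among 11 fibroblast markers, 5 rose, 5 fell and 1 was not called. Their mean log2 value lay between 10.37 and 10.47 on wild-type arrays and between 10.58 and 10.59 on knockout arrays. That mean hides large changes in both directions, so that it does not show like fibroblasts in the 2 genotypes. Thy1 and Pdgfrb had log2 fold changes of 4.03 and 1.70, and Fap and Dcn of -2.57 and -2.15. Of 8 smooth muscle markers, 5 were higher and 3 did not pass, and their mean log2 value lay between 7.58 and 7.66 on wild-type arrays and between 8.93 and 8.98 on knockout arrays. Of 9 measured macrophage and leukocyte markers, Cd68 was higher, Cd14 was lower and 7 did not pass, with means from 5.32 to 5.38 on wild-type and from 5.34 to 5.41 on knockout arrays and with Adgre1, Itgam and Lyz2 among the 25% of probe sets with the lowest mean. Of 6 endothelial markers, Cdh5 and Emcn were lower and 4 did not pass, with means from 5.10 to 5.16 on wild-type and from 4.91 to 5.04 on knockout arrays. Of 6 epithelial markers, none passed in limma or in the unmoderated test, and 1 was higher at an unadjusted p under 0.05, with means from 5.47 to 5.50 on wild-type and from 5.49 to 5.63 on knockout arrays. No array value is 0, since these values keep a background signal. The part of the differences in fibroblast and smooth muscle markers in the changes of Oxr1, Gpx8, Gpx7, Cat and Ccs was not tested.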

How the data were processed

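RNA of MEFs was hybridized to 6 Affymetrix Gene ST arrays of the mouse, 3 for each genotype. The authors used Affymetrix Expression Console to make CHP files, and Partek Genomics Suite (version 6.6) for normalization. What they deposited is 1 log2 expression value for each of 35556 probe sets and array. No source used here gives the background correction, the normalization method or the genome build. Array medians lay between 6.06 and 6.12, so that a change of total RNA per cell cannot be seen. The identifiers belong to version 1.0 of the array, although the methods name version 2.0. The annotation listed 23410 of these probe sets, of which 21789 had 1 gene symbol and 1621 several. It did not list the other 12146 of the 35556. Symbols were updated through RefSeq gene identifiers (21698 matched). The brightest probe set stood for each of 999 genes with several, which gave 19938 genes.

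Genotypes were compared with limma (version 3.58.1, R version 4.3.3), checked on simulated data, with Benjamini-Hochberg adjustment over all genes. The unmoderated test is the one-way analysis of variance of the methods. The genes, lists and tests were chosen with earlier results of these data known. Genes were named by rule: the 9 genes, the largest rise and fall of each list, the TLDc and glutathione peroxidase families, H2ax, and the 3 genes most like Oxr1. Slc31a1, Pex5, Ero1a, Ero1b, Vkorc1, Sirt7, the Y-linked genes, Xist and single cell type markers are named outside this rule. So are the genes marked above as named after their values were seen. Some listed genes are not reported here, and each list's count covers its measured genes. With 3 arrays a genotype, the number of arrays limits precision. Same-numbered arrays did not deviate together, and at most 0.087% of probe sets were identical between arrays of a genotype.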

Additional observations from a re-analysis of the deposited data

How the results depend on the processing

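Of 117 values of the 9 genes under the alternatives, 107 kept their direction and their side of the threshold, 6 lost a call, 4 gained one and none turned its direction. Some alternatives leave the fold change of these genes as it was, so that its direction could not turn there. They are the replicate block, the unmoderated test, the variance prior, the removal of dim genes and the averaging of probe sets. The last is empty here, as each gene has 1 probe set. The lost calls were those of Cat and Ccs and the gained ones those of Sod2 and Ncoa7. Requiring a fold-change over 2 left 2 lower genes and 0 higher genes of the 9. In the unmoderated test 0 of the 9 genes were higher. Leaving out 1 array gave 3 to 5 lower and 1 to 2 higher genes. The count of called genes over all genes stayed within 1.5 times 6666 throughout. Without the dimmer 50% of genes it was 5494 of 9969 tested, a larger share than 6666 of 19938.

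Replicate numbers do not pair the arrays (correlations of same-numbered deviations were -0.29, -0.24 and 0.08). With the replicate block, 3 of the 9 genes were lower and 1 was higher, Cat losing its call (adjusted p = 0.056), and the copper list had 1 higher and 1 lower gene and the ER folding list 1 higher gene. In the unmoderated test, the TLDc family had 0 higher genes, copper handling 1 lower, manganese and zinc handling 0 higher and 0 lower, ER folding 0 higher, peroxisome assembly 1 higher and 0 lower, and FOXO factors and sirtuins 1 lower. With a trended and robust variance prior, ER folding had 1 higher gene. After quantile normalization the TLDc family had 2 lower genes, and after median centring manganese and zinc handling had 0 lower and FOXO factors and sirtuins 1 lower. When the dimmer 50% of genes were left out, fewer genes of some lists were tested: the TLDc family had 2 lower, the peroxisomal oxidases 0 lower, the superoxide producers 0 higher and FOXO factors and sirtuins 1 lower. Averaging the probe sets of a gene moved none of these counts by over 1.5 times.

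Over the settings that leave out 1 array, the TLDc family ranged from 0 to 1 higher and from 1 to 2 lower genes, the other glutathione peroxidases from 0 to 1 lower, copper handling from 1 to 2 higher and from 1 to 3 lower, manganese and zinc handling from 0 to 1 lower, ER folding from 1 to 4 higher, peroxisome assembly from 0 to 2 lower, and FOXO factors and sirtuins from 3 to 5 higher and from 1 to 2 lower. Named genes that turned sign had no call: Tldc2 ranged from -0.036 to 0.054 and Gpx2 from -0.14 to 0.083 log2 units when 1 array was left out, Gpx3 from -0.075 to 0.012, and after quantile normalization Gpx2 was at 0.011, and after median centring Gpx2 at 0.034 and Gpx3 at 0.013. The cause of these shifts was not tested. The median of all genes was 0.02 as deposited, 0.03 after quantile normalization and 0.06 after median centring.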
